A study of Mus musculus with 4 samples.

Results

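Messenger RNA of 10 immune checkpoint genes, Ctla4, Pdcd1, Lag3, Havcr2, Tigit, Pvrig, Cd160, Cd200, Icos and Cd28, was followed over 4 libraries of mouse regulatory T (Treg) cells, the CD4 lineage that is defined by Foxp3 and holds immune responses in check. The genes were taken from the deposited count table by symbol, and all 10 were found among its 19044 symbols. All 10 also passed the minimum for testing, a mean of 5 CPM (counts per 1000000 counts of the library) over the libraries, as did 9680 genes in all. Pvrig (mean 5.54 CPM) and Cd160 (7.39 CPM) lay nearest above that minimum, and Pvrig passed it through its aTreg libraries. The Pvrig mean was 7.11 CPM over the KO-labelled libraries and 3.99 CPM, below the minimum, over the WT libraries. Havcr2 (mean 15.0 CPM) passed it through its KO-labelled libraries, since both WT values were below 5 CPM.

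The cells came from spleen and peripheral lymph nodes of untreated mice. The knockout genotype was Ripk1fl/fl Foxp3-YFP-Cre, in which Cre, expressed with yellow fluorescent protein from the Foxp3 locus, is meant to remove the loxP-flanked part of Ripk1 in Foxp3-expressing cells, and the WT genotype was Foxp3-YFP-Cre alone, so that both carried the Cre allele. Each genotype gave 1 aTreg and 1 rTreg library, names that in this field stand for activated and resting Treg cells but are not spelled out in the labels. Not given in the sources used here are the sort gates, the age and number of mice, any pooling, and whether 1 set of mice served for both states. The p-values below therefore measure only the spread between these libraries.

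Depth ran from 17588754 to 20868319 counts per library. A count of 0 would allow up to 0.144 to 0.171 CPM, a limit that covers counting error only. Ripk1 stood at 80.8 and 84.7 CPM in the aTreg and rTreg libraries labelled knockout, against 77.5 and 83.6 CPM in WT aTreg and rTreg (edgeR adjusted p = 0.658). The whole-gene count therefore showed no loss, but it cannot show whether the loxP-flanked part was removed. The libraries labelled knockout are called KO-labelled here. Foxp3 was at 658 and 619 CPM in KO-labelled aTreg and rTreg and at 694 and 688 CPM in the WT libraries. Xist, expressed from the inactive X chromosome of females, was at 0.213 and 0.284 CPM in the KO-labelled libraries and at 338 and 299 CPM in the WT libraries, so the sex of the mice and the genotype cannot be told apart. None of the 10 genes lies on a sex chromosome, which does not separate sex from genotype for them, and the part of sex in their differences was not tested. The 7 T and Treg cell markers measured summed to 3791 and 3746 CPM in KO-labelled aTreg and rTreg and to 3794 and 3479 CPM in WT aTreg and rTreg.

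Checkpoint receptors tune the signal that a T cell receives through its antigen receptor. CD28 and ICOS add a stimulating signal, whereas CTLA-4, PD-1 (Pdcd1), LAG-3, TIM-3 (Havcr2), TIGIT and PVRIG restrain the cell that carries them or the cell it meets. CTLA-4 competes with CD28 for the ligands CD80 and CD86, and on Treg cells it also strips these ligands from antigen-presenting cells. Cd200 encodes a surface ligand, whose receptor CD200R sits mainly on myeloid cells, and is grouped here with the receptors.

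Between genotypes, 4 of the 10 genes (Havcr2, Tigit, Icos and Pvrig) rose in KO-labelled cells and 3 (Cd28, Cd200 and Pdcd1) fell there. Ctla4, Lag3 and Cd160 did not pass. The call is an adjusted p under 0.05 in edgeR's quasi-likelihood test with genotype and state as additive terms. The same test called 47.2% of all tested genes, 24.4% higher and 22.8% lower, the share against which the 7 calls among 10 genes are to be read. Between states, 6 genes (Pvrig, Lag3, Tigit, Pdcd1, Havcr2 and Icos) rose in aTreg and none fell, where the test called 13.4% of all genes, 7.91% higher and 5.44% lower. With genotype as the single term, edgeR called 1 of the 10 genes and 1626 of all 9680 tested genes. With state as the single term, it called 0 of the 10 and 0 of all tested genes. An unadjusted p under 0.05 for state was then found for 3 of the 10 and for 328 of all tested genes. The median log2 difference of the 10 genes was 0.15 for genotype and 0.85 for state, each against 0.00 over all tested genes. When libraries were scaled to 7 T cell genes, the test called 2898 genes higher and 1716 lower for genotype, against 2363 and 2210, and 650 higher and 851 lower for state, against 766 and 527. Upper-quartile scaling moved the genotype calls the other way, to 2033 higher and 2667 lower, and gave 727 higher and 592 lower for state. In bulk libraries, more cells expressing a gene and more RNA per expressing cell cannot be told apart.

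**Figure D1:**
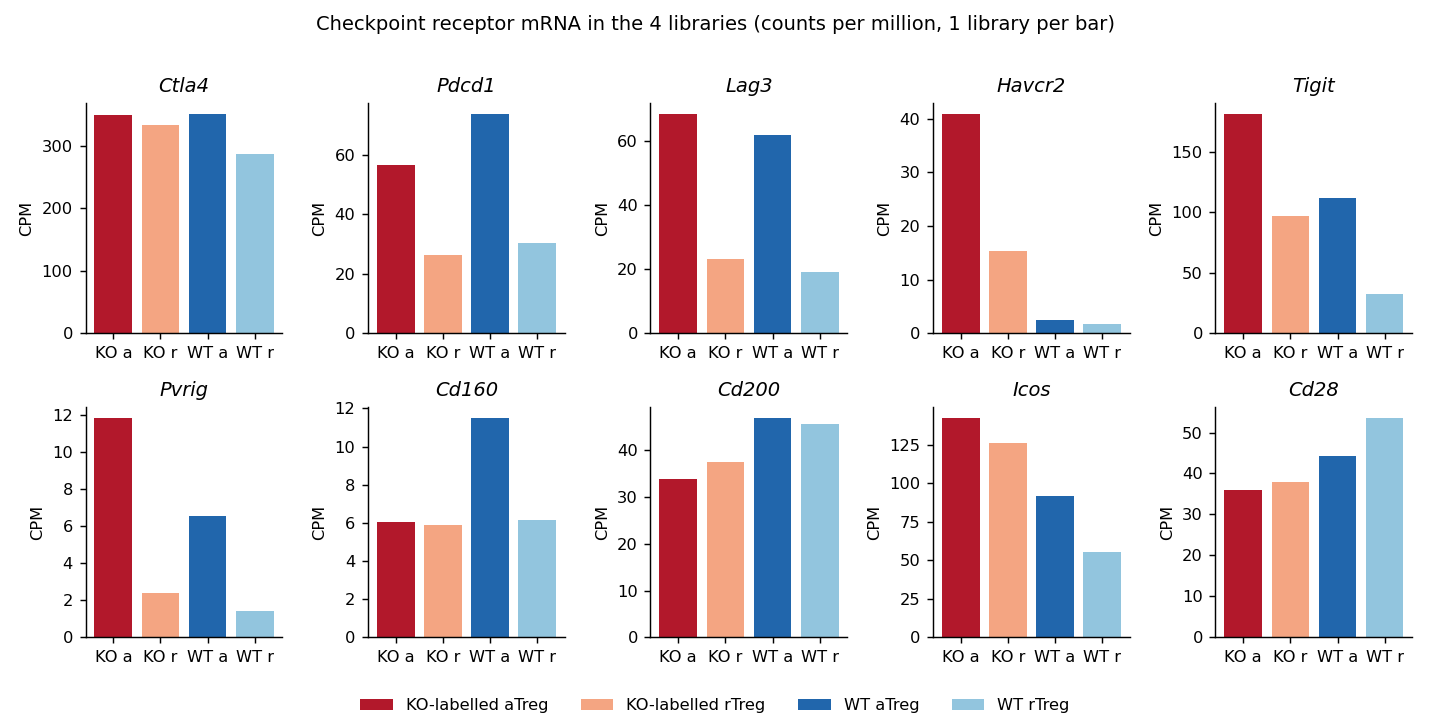
CPM (vertical axes, each from 0) of the 10 genes in KO-labelled aTreg, KO-labelled rTreg, WT aTreg and WT rTreg, 1 library per bar, so there are no error bars. Havcr2 is high only in the KO-labelled bars, Pdcd1, Lag3, Tigit and Pvrig are higher in aTreg than in rTreg of both genotypes, and Ctla4 differs little, from 288 to 351.6 CPM.

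Havcr2 encodes TIM-3, an inhibitory receptor known from type 1 helper T cells and from exhausted T cells, for which galectin-9 is among the described ligands. It had 40.9 CPM in KO-labelled aTreg (768 counts) and 15.3 CPM in KO-labelled rTreg (270 counts), against 2.43 CPM in WT aTreg (50 counts) and 1.67 CPM in WT rTreg (35 counts). Both KO-labelled libraries lay above both WT libraries. Havcr2 was 16.2-fold higher in aTreg and 8.72-fold higher in rTreg, log2 ratios of 4.02 [3.66 to 4.52] and 3.12 [2.69 to 3.75], where the brackets are exact 95% intervals that cover counting error only. It rose by 3.71 log2 units with genotype (SE 0.212, edgeR adjusted p = 9.78e-08), the seventh in size among the rises of all tested genes, a rank among genes that include it only through the libraries where it was high. With the states as replicates of each other, the adjusted p was 0.0212, and Havcr2 was then the only one of the 10 genes called. Between the authors' deposited variance-stabilised values, in which low counts are drawn together, its log2 differences were 1.87 in aTreg and 1.11 in rTreg.

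Havcr2 also rose in aTreg, by 1.20 on the log2 scale (SE 0.200, edgeR adjusted p = 0.00161). The ratio of aTreg over rTreg was 1.41 [1.22 to 1.62] in the KO-labelled pair and 0.52 [-0.11 to 1.21] in the WT pair, whose counting interval spans 0. TIM-3 is also found on myeloid and natural killer cells. Of 6 monocyte and macrophage markers, Adgre1 had at most 2 counts, Csf1r 9 and Lyz2 12 in any library, and only Cd68 reached 5 CPM. Itgam, the integrin chain CD11b, had 2.03 CPM in KO-labelled aTreg (38 counts) and 2.78 CPM in KO-labelled rTreg (49 counts), against 0.291 CPM in WT aTreg (6 counts) and 0.715 CPM in WT rTreg (15 counts), apart between genotypes as Havcr2 was. Cd14 had 6 and 8 counts in KO-labelled aTreg and rTreg, against 3 and 2 counts in WT aTreg and rTreg. For Lyz2 these were 12 and 11 counts, against 12 and 8. Csf1r went the other way, with 3 and 6 counts in KO-labelled aTreg and rTreg, against 9 and 9 in WT. Cd68 (12.2 and 14.4 CPM, against 12.5 and 12.6 CPM in WT) and Adgre1 (0 and 2 counts, against 2 and 2) overlapped between genotypes. All 6 markers summed to 15.3 to 18.7 CPM in the KO-labelled libraries and to 14.1 to 14.3 CPM in the WT libraries. The 3 measured natural killer and innate lymphoid markers summed to 7.57 to 7.61 CPM in KO-labelled and 2.43 to 3.21 CPM in WT libraries. Eomes made up most of the sum in the KO-labelled ones, and Klrk1 had at most 6 counts in any library. Klrb1c had 26 and 5 counts in KO-labelled aTreg and rTreg, against 48 and 13 counts in WT aTreg and rTreg. Klrb1c was thus lower in the KO-labelled library of each state. The part of these markers in the Havcr2 difference was not tested.

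Tigit encodes an inhibitory receptor for CD155 (Pvr), which it shares with the stimulating receptor CD226. It had 181 CPM in KO-labelled aTreg and 96.5 CPM in KO-labelled rTreg, against 111 CPM in WT aTreg and 32.4 CPM in WT rTreg. WT rTreg stood lowest by far, and KO-labelled rTreg lay just below WT aTreg, so the genotypes overlapped while the states did not. With genotype Tigit rose by 1.10 on the log2 scale (SE 0.140, edgeR adjusted p = 4e-05), and with state by 1.31 (SE 0.140, edgeR adjusted p = 6.32e-05). The genotype ratio was 0.70 [0.62 to 0.78] in aTreg and 1.57 [1.45 to 1.71] in rTreg. With states as replicates, the genotype difference of Tigit was not called (adjusted p = 0.313).

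Pvrig encodes an inhibitory receptor of the same family, described in human as a receptor for nectin-2. It had 11.8 CPM in KO-labelled aTreg (222 counts) and 2.38 CPM in KO-labelled rTreg (42 counts), against 6.56 CPM in WT aTreg (135 counts) and 1.43 CPM in WT rTreg (30 counts). Both aTreg libraries lay above both rTreg libraries. Pvrig had the largest state difference of the 10 genes, 2.26 on the log2 scale (SE 0.247, edgeR adjusted p = 7.32e-05). This was the eighth in size among the rises of all tested genes, a rank among genes that include it only through the aTreg libraries, where it was high. The ratio of aTreg over rTreg was 2.26 [1.83 to 2.82] in the KO-labelled pair and 2.12 [1.62 to 2.82] in the WT pair. Pvrig rose by 0.81 with genotype (SE 0.239, edgeR adjusted p = 0.0136), a call lost with states as replicates (adjusted p = 0.561) and with DESeq2 (adjusted p = 0.159). Its WT mean of 3.99 CPM was below the level minimum, so for genotype too it was tested only through libraries where it was high. A processed pseudogene of Pvrig lies close to it on chromosome 5, and reads from near-identical sequence may have been split or lost in counting.

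Havcr2, Tigit and Pvrig were the 3 genes that rose with both genotype and state and have a RefSeq promoter window, and Pdcd1, which rose with state and fell with genotype, is set beside them. Each window holds 250 bases before and 50 after the annotated start, from RefSeq on GRCm38.p6, written 5′ to 3′ on the gene's strand. Havcr2 is at chr11:46454681-46454980 (plus strand), Tigit at chr16:43664135-43664434 (minus), Pvrig at chr5:138341681-138341980 (plus) and Pdcd1 at chr1:94052504-94052803 (minus). Capitals mark letters that match any of the motifs named after the sequences.
Havcr2: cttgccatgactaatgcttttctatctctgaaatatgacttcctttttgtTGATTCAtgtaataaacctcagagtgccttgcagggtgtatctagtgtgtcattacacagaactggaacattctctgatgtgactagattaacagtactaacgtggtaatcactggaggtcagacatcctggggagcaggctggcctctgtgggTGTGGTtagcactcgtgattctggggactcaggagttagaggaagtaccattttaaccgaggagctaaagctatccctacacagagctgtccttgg
Tigit: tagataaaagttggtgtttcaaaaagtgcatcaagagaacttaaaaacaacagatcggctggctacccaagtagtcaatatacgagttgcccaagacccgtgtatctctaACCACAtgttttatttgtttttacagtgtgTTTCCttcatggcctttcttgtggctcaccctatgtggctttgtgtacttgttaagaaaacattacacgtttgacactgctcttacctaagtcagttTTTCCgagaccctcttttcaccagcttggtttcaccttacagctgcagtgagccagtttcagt
Pvrig: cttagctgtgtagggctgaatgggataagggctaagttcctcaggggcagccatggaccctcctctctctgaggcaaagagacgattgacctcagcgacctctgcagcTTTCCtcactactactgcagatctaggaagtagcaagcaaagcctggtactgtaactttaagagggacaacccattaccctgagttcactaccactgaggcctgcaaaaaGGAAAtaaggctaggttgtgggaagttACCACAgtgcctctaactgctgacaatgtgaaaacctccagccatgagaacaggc
Pdcd1: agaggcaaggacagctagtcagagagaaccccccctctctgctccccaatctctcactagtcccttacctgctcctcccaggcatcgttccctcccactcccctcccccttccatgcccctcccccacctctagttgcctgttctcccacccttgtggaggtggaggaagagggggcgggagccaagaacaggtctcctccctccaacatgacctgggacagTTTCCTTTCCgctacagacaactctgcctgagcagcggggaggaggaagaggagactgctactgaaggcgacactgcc

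Windows of 7 of the 10 genes were matched (Ctla4, Pdcd1, Havcr2, Tigit, Pvrig, Cd160 and Cd200), and 8 motifs were searched on both strands. These genes have 8 windows, since Cd160 has 2, and a match in either was counted for Cd160. Counts of genes and shares of windows below are therefore not like for like. The RUNX letters TGTGGT occurred in Havcr2, Tigit, Pvrig and Cd160, 4 of 7 genes, and in 16.8% of all 32851 windows of the table. The NFAT letters GGAAA occurred in 5 of 7 genes, side by side in Pdcd1, and in 61.3% of all windows. The AP-1 letters TGANTCA occurred in Havcr2 alone (7.81% of all windows), and the T-box letters TCACACC (3.98%) and the STAT letters TTCNNNGAA (8.30%) in Cd160 alone. The forkhead letters GTAAACA (3.65%), the ISRE letters, GAAA and GAAA with 2 bases between them (3.44%), and the kappaB letters, GGGA and TTCC with 2 bases between them (1.47%), occurred in none of the 7. These are matches of letters and were not linked to binding.

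Pdcd1 encodes PD-1, which binds PD-L1 (Cd274) and PD-L2 (Pdcd1lg2) and dampens signals of the antigen receptor and of CD28. It had 56.5 CPM in KO-labelled aTreg and 26.2 CPM in KO-labelled rTreg, against 73.9 CPM in WT aTreg and 30.4 CPM in WT rTreg. State separated these libraries, both aTreg values being above both rTreg values. Pdcd1 rose by 1.20 log2 units with state (SE 0.0891, edgeR adjusted p = 3.97e-06). It fell by 0.31 with genotype (SE 0.0884, edgeR adjusted p = 0.0117), which was not called with states as replicates (adjusted p = 0.679) or with DESeq2 (adjusted p = 0.157). The genotype ratio was -0.39 [-0.50 to -0.27] in aTreg and -0.21 [-0.39 to -0.04] in rTreg.

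Lag3 encodes a CD4-related receptor for MHC class II, and its gene lies close to Cd4 on chromosome 6. It had 68.6 CPM in KO-labelled aTreg and 23.2 CPM in KO-labelled rTreg, against 61.9 CPM in WT aTreg and 19.3 CPM in WT rTreg. The states did not overlap, and the genotypes lay close together within each state. Lag3 rose by 1.62 log2 units with state (SE 0.0927, edgeR adjusted p = 3.27e-07). Its genotype difference of 0.20 did not pass (SE 0.0914, edgeR adjusted p = 0.0886), although it was called when libraries were scaled to T cell genes (0.26, adjusted p = 0.0327).

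**Figure D2:**
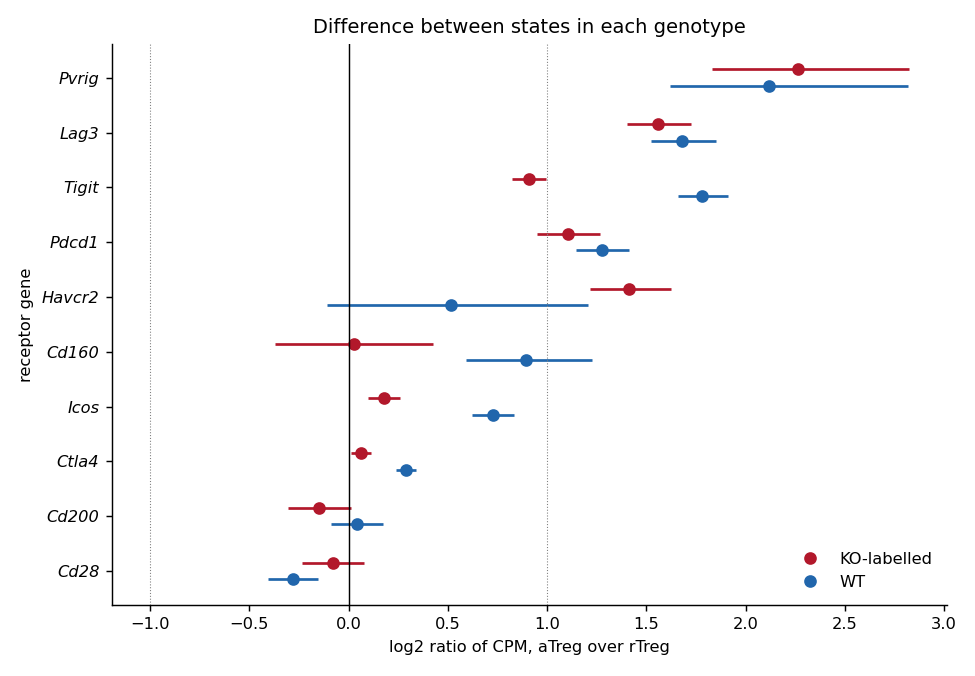
Log2 ratio of CPM of aTreg over rTreg (horizontal axis) for each gene (rows), in the KO-labelled and the WT pair of libraries, with 95% counting intervals as lines and 2-fold as dotted lines. Pvrig, Lag3 and Pdcd1 lie past 2-fold in both pairs, Tigit only in WT (1.78) and Havcr2 only in the KO-labelled pair (1.41).

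At least 2-fold higher in aTreg of the KO-labelled pair were 4 of the 10 genes (Pdcd1, Lag3, Havcr2 and Pvrig), where 0.950% of all tested genes were 2-fold higher, 0.134% lower and 1.08% either way. In the WT pair 4 were as well (Pdcd1, Lag3, Tigit and Pvrig), where 1.87% of all tested genes were higher, 0.723% lower and 2.59% either way. No gene of the 10 was 2-fold lower in either pair. These contrasts of 1 library with 1 library have no replicate check. All aTreg libraries lay above all rTreg libraries for 5 genes, Ctla4, Pdcd1, Lag3, Tigit and Pvrig, where 14.1% of all tested genes had that order, 12.9% the opposite one and 27.0% either.

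Icos encodes the inducible costimulator, a CD28 relative that binds ICOSL and is abundant on effector Treg cells. It had 143 CPM in KO-labelled aTreg and 126 CPM in KO-labelled rTreg, against 91.5 CPM in WT aTreg and 55.3 CPM in WT rTreg. Both KO-labelled values lay above both WT values. Icos rose by 0.91 log2 units with genotype (SE 0.102, edgeR adjusted p = 1.41e-05), and with states as replicates the adjusted p was 0.0673. The ratio was 0.64 [0.55 to 0.73] in aTreg and 1.19 [1.08 to 1.29] in rTreg. With state it rose by 0.44 (SE 0.101, edgeR adjusted p = 0.0114), a call that DESeq2 did not make (adjusted p = 0.0590).

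Cd28 encodes the main costimulatory receptor of T cells. It had 36.1 CPM in KO-labelled aTreg and 38.0 CPM in KO-labelled rTreg, against 44.2 CPM in WT aTreg and 53.6 CPM in WT rTreg. The KO-labelled values were the 2 lowest. Cd28 fell by 0.39 log2 units with genotype (SE 0.0924, edgeR adjusted p = 0.00362), which was not called with states as replicates (adjusted p = 0.0901) or with DESeq2 (adjusted p = 0.0616). Its state difference of -0.18 did not pass (edgeR adjusted p = 0.236).

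Cd200 had 34.0 CPM in KO-labelled aTreg and 37.6 CPM in KO-labelled rTreg, against 47.0 CPM in WT aTreg and 45.6 CPM in WT rTreg. The genotypes did not overlap and the states did. Cd200 fell by 0.37 log2 units with genotype (SE 0.0938, edgeR adjusted p = 0.00551). This call too was lost with states as replicates (adjusted p = 0.0665) and with DESeq2 (adjusted p = 0.0840), and the state difference was -0.05 (edgeR adjusted p = 0.792).

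Ctla4, the most counted of the 10 genes, had 349 CPM in KO-labelled aTreg and 334 CPM in KO-labelled rTreg, against 351.6 CPM in WT aTreg and 288 CPM in WT rTreg. Only WT rTreg stood apart, below the other 3 libraries. The ratio of genotypes was -0.01 [-0.06 to 0.04] in aTreg, which turned to 0.04 when libraries were scaled to T cell genes, and 0.22 [0.16 to 0.27] in rTreg. Neither the genotype difference of 0.10 (SE 0.0736, edgeR adjusted p = 0.272) nor the state difference of 0.18 (SE 0.0737, edgeR adjusted p = 0.145) passed.

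Cd160 encodes a glycolipid-anchored receptor that binds the herpesvirus entry mediator HVEM (Tnfrsf14). It had 6.02 CPM in KO-labelled aTreg (113 counts) and 5.90 CPM in KO-labelled rTreg (104 counts), against 11.5 CPM in WT aTreg (237 counts) and 6.15 CPM in WT rTreg (129 counts). WT aTreg alone was high. The genotype difference of -0.52 (SE 0.236, edgeR adjusted p = 0.0863) and the state difference of 0.50 (SE 0.236, edgeR adjusted p = 0.197) did not pass, but the genotype difference was called when genes with low counts were kept (-0.51, adjusted p = 0.0333). The start of Cd160 overlaps Pdzk1 on the opposite strand, and since the strand setting of the counting is not stated, reads of the overlap may be counted for either gene.

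**Figure D3:**
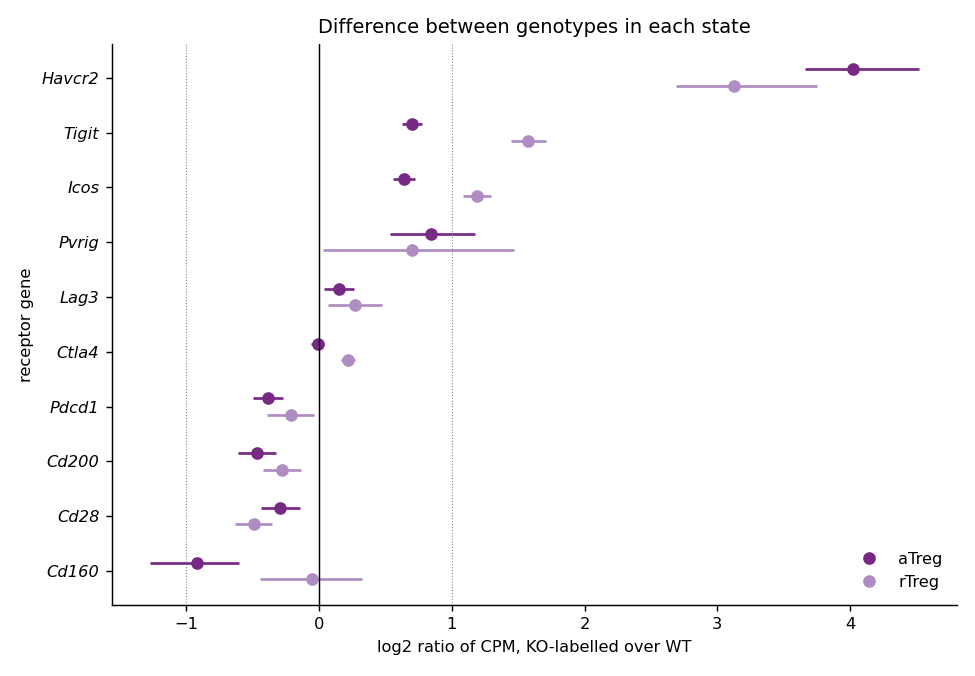
Log2 ratio of CPM of KO-labelled over WT (horizontal axis) for each gene (rows), in aTreg and in rTreg, with 95% counting intervals as lines and 2-fold as dotted lines. Havcr2 stands far to the right in both states, Tigit and Icos lie farther right in rTreg (1.57 and 1.19) than in aTreg (0.70 and 0.64), and Cd160 lies left of 0 in aTreg (-0.92) and near it in rTreg (-0.06).

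In aTreg 1 of the 10 genes, Havcr2, was at least 2-fold higher in the KO-labelled library, where 3.95% of all tested genes were higher, 2.17% lower and 6.12% either way. In rTreg 3 were, Havcr2, Tigit and Icos, where 3.41% of all tested genes were higher, 1.34% lower and 4.75% either way. No gene of the 10 was 2-fold lower in either state. The genotypes did not overlap for 5 genes, Havcr2 and Icos higher and Cd160, Cd200 and Cd28 lower in the KO-labelled libraries, where 33.2% of all tested genes were apart and higher, 31.9% apart and lower and 65.1% either. In the authors' deposited table, which compares the genotypes alone, 2 of the 10 genes had an adjusted p under 0.05, Havcr2 and Icos, as had 16.6% of the 12398 genes with an adjusted p. The authors' deposited table gives log2 fold changes of WT over knockout, -3.79 for Havcr2 (adjusted p = 2.62e-14) and -0.88 for Icos (adjusted p = 0.00196), so negative values are higher in the KO-labelled libraries.

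The genotype ratio was set against itself across states as the log2 ratio in aTreg minus that in rTreg, with 95% Wald intervals from the 4 counts, which cover counting error only. The design leaves no residual to test this difference. Computed without the prior count, it was -0.88 [-1.02 to -0.73] for Tigit, -0.55 [-0.68 to -0.42] for Icos, -0.88 [-1.37 to -0.38] for Cd160 and -0.23 [-0.30 to -0.15] for Ctla4, each a genotype ratio lower in aTreg than in rTreg. For Havcr2 it was 0.88 [0.22 to 1.53], and for Cd28 0.20 [0.003 to 0.40]. For Pdcd1, Lag3, Pvrig and Cd200 the counting interval spanned 0.

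Levels of different genes were compared per kilobase of exon, with exon lengths from GENCODE M21 on GRCm38. Ctla4 led in 3 libraries, with 143 CPM per kilobase in KO-labelled rTreg, 151 in WT aTreg and 124 in WT rTreg. In KO-labelled aTreg, Tigit stood first at 197 CPM per kilobase, ahead of Ctla4 at 149.8. In WT rTreg, Tigit was second at 35.2 CPM per kilobase. Icos was the third in every library but WT aTreg, where Pdcd1 (38.3 CPM per kilobase) and Lag3 (29.4) came before it (26.7). Havcr2 was last in both WT libraries, at 0.892 CPM per kilobase in aTreg and 0.613 in rTreg, but the sixth in KO-labelled aTreg (15.0) and the eighth in KO-labelled rTreg (5.63).

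Of the 36 pairs of neighbours in these orders, 7 did not differ beyond counting error. They were Pvrig and Cd200 in KO-labelled aTreg, then Cd200 and Lag3, Cd28 and Havcr2, and Cd160 and Pvrig in KO-labelled rTreg. The others were Cd28 and Pvrig in WT aTreg, and Icos and Pdcd1 and also Lag3 and Cd28 in WT rTreg.

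**Figure D4:**
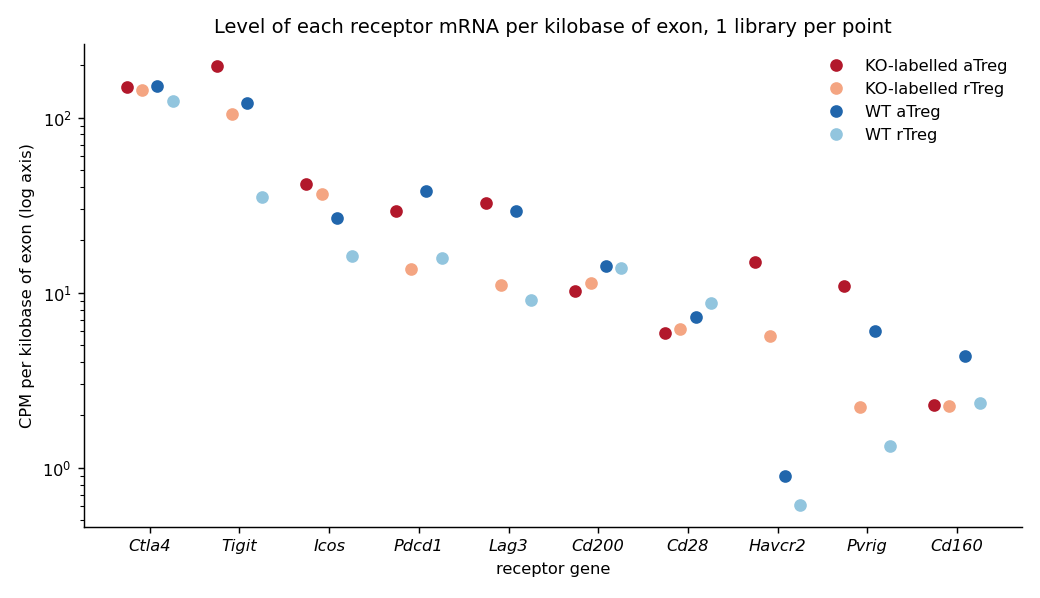
CPM per kilobase of exon (vertical log axis) of each gene (horizontal axis, ordered by mean), 1 point per library. Ctla4 has the 4 points closest together (124 to 151), Tigit spans 35.2 to 197, and Havcr2 spans 0.613 to 15.0 CPM per kilobase.

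Cd28, Ctla4 and Icos are neighbours on the plus strand of chromosome 1 (GRCm38). Cd28 spans chr1:60716800-60773359, Ctla4 chr1:60887000-60915832 and Icos chr1:60977927-61000320, together 284 kilobases. Their libraries were ordered differently, Icos being highest and Cd28 lowest in KO-labelled aTreg. The ratio of Ctla4 over Cd28 per kilobase was 25.4 [23.5 to 27.6] in KO-labelled aTreg and 23.1 [21.3 to 25.0] in KO-labelled rTreg, against 20.9 [19.5 to 22.4] in WT aTreg and 14.1 [13.2 to 15.0] in WT rTreg. The ratio of Icos over Cd28 was 7.05 [6.48 to 7.69] in KO-labelled aTreg and 5.91 [5.42 to 6.45] in KO-labelled rTreg, against 3.70 [3.41 to 4.01] in WT aTreg and 1.84 [1.69 to 1.999] in WT rTreg. Both ratios were therefore lowest in WT rTreg beyond counting error, and these pairs were chosen after the values were seen.

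The wider pathway was described with 5 further lists of 75 tested genes in all, of which 22 rose and 24 fell with genotype and 24 rose and 6 fell with state. Of all tested genes, 24.4% rose and 22.8% fell with genotype and 7.91% rose and 5.44% fell with state, the shares against which the counts of each list are to be read. Of 11 tested ligand genes (CD200R included), 4 rose and 2 fell with genotype, with a median log2 difference of 0.23. Cd80, a ligand of CD28 and CTLA-4, had 24.0 CPM in KO-labelled aTreg and 19.9 CPM in KO-labelled rTreg, against 5.92 CPM in WT aTreg and 4.34 CPM in WT rTreg, a rise of 2.10 on the log2 scale (SE 0.164, edgeR adjusted p = 7.4e-07). Cd86, which binds the same pair of receptors, fell by 0.60 (SE 0.159, adjusted p = 0.0076). Cd274, the ligand of PD-1, had 117 and 138 CPM in KO-labelled aTreg and rTreg, against 77.4 and 57.4 CPM in WT aTreg and rTreg, and rose by 0.92 (SE 0.115, edgeR adjusted p = 3.4e-05).

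Lgals3, which encodes galectin-3, a described ligand of LAG-3, rose by 2.77 on the log2 scale (SE 0.112, edgeR adjusted p = 7.66e-09), and Lgals9 was the other ligand gene that rose, by 0.23. Cd200r1, the receptor for CD200, fell by 0.57 with genotype (SE 0.115, edgeR adjusted p = 0.0013) and rose by 0.51 with state (SE 0.115, adjusted p = 0.0104). Pdcd1lg2 and Icosl rose with state too, by 0.99 and 0.78, so that 3 of the 11 ligand genes rose in aTreg and none fell. Cd80 did not pass for state (0.34, edgeR adjusted p = 0.199).

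Of 15 further receptors of T cells, 5 rose and 5 fell with genotype, with a median of 0.01, and 7 rose and 1 fell with state, with a median of 0.16. Klrg1, an inhibitory lectin-like receptor of effector cells, rose with genotype by 1.33 (SE 0.0797, edgeR adjusted p = 1.38e-07) and by 1.10 with state (SE 0.0796, adjusted p = 3.73e-06). Lilrb4a rose by 1.75 with genotype and by 3.21 with state, although its reads may be shared with its near relative Lilrb4b. In aTreg, Lilrb4a had 32.7 CPM in the KO-labelled library (614 counts) and 12.0 CPM in WT (248 counts). In rTreg it had 4.71 CPM (83 counts) and 0.667 CPM (14 counts), both below the minimum of 5 CPM. Cd48 rose with genotype by 0.72, and Cd101, an inhibitory receptor, fell by 0.67 with genotype but rose by 0.53 with state. Cd40lg, the ligand for CD40, fell by 0.35 with genotype and rose by 0.60 with state. Cd226, the stimulating receptor that shares CD155 with TIGIT and was named after its values were seen, differed by -0.10 with genotype (edgeR adjusted p = 0.256) and rose by 0.34 with state.

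Of 10 genes listed for the trafficking and shedding of CTLA-4 and LAG-3, 6 rose and 1 (Hvcn1) fell with genotype (median 0.20), and 2 rose and 1 fell with state (median 0.02). Adam17, a sheddase that cleaves LAG-3, rose by 0.30 with genotype and by 0.22 with state. Rab8a and Rab11a, small GTPases of vesicle transport, rose with genotype by 0.41 and 0.32. The listed proton channel gene Hvcn1 fell by 0.62, and its part in the transport of CTLA-4 or LAG-3 was not tested. Lrba, which keeps CTLA-4 from lysosomal breakdown, rose by 0.41 with state (SE 0.0659, edgeR adjusted p = 0.00119). Trat1, an adaptor that brings CTLA-4 to the surface, fell by 0.65 with state (SE 0.0770, adjusted p = 0.000134), and Adam10 did not pass for state (0.12).

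Of 20 proximal signalling genes, 2 rose and 8 fell with genotype (median -0.13). Pik3r1, the regulatory subunit of PI 3-kinase that docks on CD28 and ICOS, had 234 and 269 CPM in KO-labelled aTreg and rTreg, against 332 and 375 CPM in WT aTreg and rTreg, and fell by 0.49 (SE 0.0665, edgeR adjusted p = 6.15e-05). Vav1, an exchange factor, fell by 0.31, while the adaptor gene Grb2 rose by 0.32. With state 1 rose and 1 fell, Ptpn11, the phosphatase SHP-2 recruited by PD-1, by 0.33 and Prkcq by 0.25, and Grap2 (-0.21) and Sh2d1a (0.21) did not pass.

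Of 19 tested transcription factor genes known to act at checkpoint receptor genes, 5 rose and 8 fell with genotype (median -0.23), and 11 rose and 3 fell with state (median 0.47). Tbx21, which encodes T-bet, had 70.8 and 36.5 CPM in KO-labelled aTreg and rTreg, against 10.8 and 2.76 CPM in WT aTreg and rTreg, a rise of 3.09 with genotype (SE 0.178, edgeR adjusted p = 9.78e-08) and of 1.26 with state (SE 0.172, adjusted p = 0.000379). Prdm1, the gene of BLIMP-1, had 68.4 and 44.0 CPM in KO-labelled aTreg and rTreg, against 38.7 and 14.9 CPM in WT aTreg and rTreg, and rose by 1.16 with genotype (SE 0.138, edgeR adjusted p = 2.39e-05) and 0.97 with state (SE 0.138, adjusted p = 0.000509). Tox2, a relative of the exhaustion factor TOX, had 19.1 and 9.76 CPM in KO-labelled aTreg and rTreg, against 50.2 and 13.7 CPM in WT aTreg and rTreg, falling by 1.01 with genotype (SE 0.174, edgeR adjusted p = 0.000439) and rising by 1.47 with state (SE 0.175, adjusted p = 0.000135). Nr4a2, an early-response nuclear receptor, fell by 1.14 with genotype, and Maf rose by 1.10 with state.

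**Figure D5:**
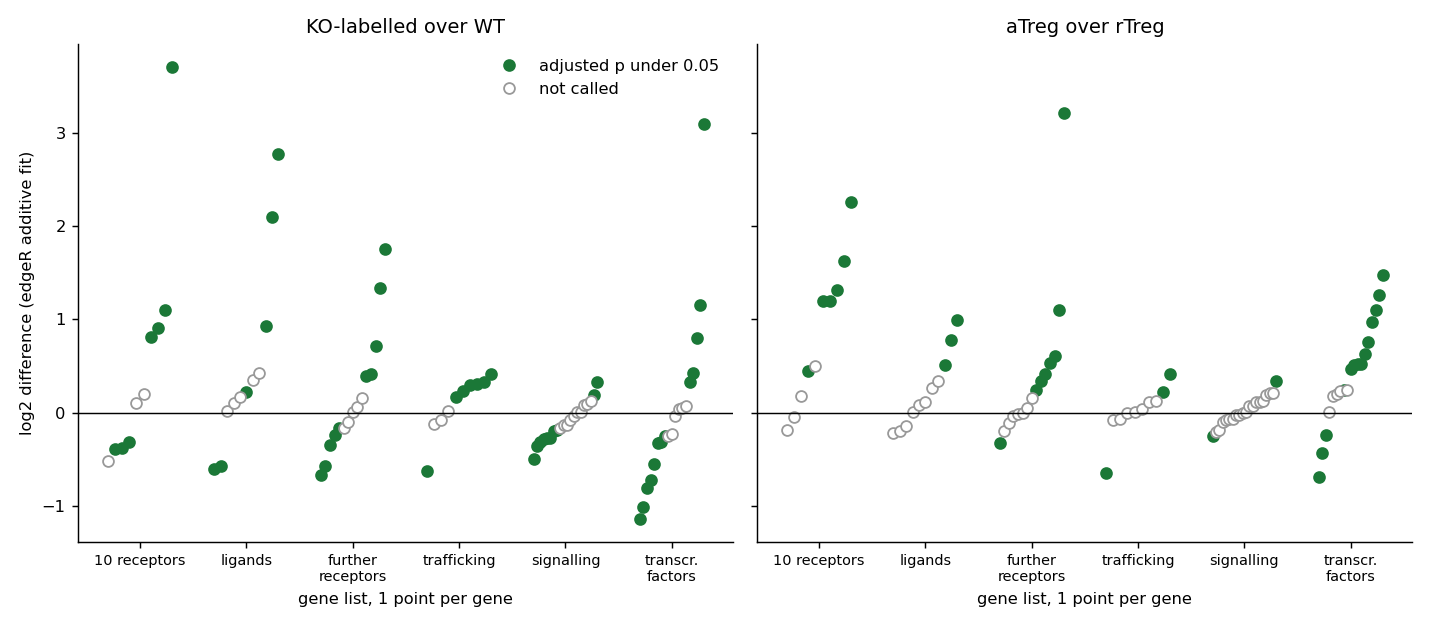
Log2 difference from the additive edgeR fit (vertical axis) for the 10 genes and the tested genes of the 5 lists (horizontal axis), KO-labelled over WT on the left and aTreg over rTreg on the right, filled where the adjusted p is under 0.05. Signalling and trafficking genes, some of them filled in each panel, reach at most -0.62 for genotype (Hvcn1) and -0.65 for state (Trat1). The largest differences are those of receptors, ligands and transcription factors, led by Havcr2 (3.71) for genotype and Lilrb4a (3.21) for state. Havcr2, Lilrb4a and Pvrig passed the level minimum only through the libraries where they were high.

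The genes nearest in pattern were found for the 4 members with the widest range, by the Euclidean distance of log2 CPM, centred on each gene's mean, over the 4 libraries and among 9200 protein-coding genes. Nearest to Havcr2 (range 4.53 log2 units) were Ifitm2 (distance 0.62), Nkg7 (0.63), Ifitm1 (0.76) and Gzmb (0.85). Nearest to Pvrig (range 2.96) were Csf1 (0.33), Mmp9 (0.54), Cxcr6 (0.62) and Chst11 (0.65). For Tigit (range 2.48) they were Pik3ap1 (0.22), Nid2 (0.26), Ebi3 (0.27) and Fam83g (0.29), and for Lag3 (range 1.83) Ttn (0.21), Susd2 (0.33), Angptl2 (0.34) and B4galnt4 (0.37). Among the 10 genes themselves, Cd28 and Cd200 were closest (0.23), and over 4 libraries such a distance is a description only.

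Markers of other cells moved in part with genotype. The 3 measured red blood cell markers summed to 9.20 to 10.3 CPM in KO-labelled libraries and to 0.619 to 1.60 CPM in WT libraries. The 2 CD8 T cell markers summed to 9.65 to 12.9 CPM in KO-labelled and 7.82 to 10.5 CPM in WT libraries, the 6 B cell markers to 15.6 to 19.1 and 13.2 to 18.1 CPM, the 4 measured dendritic cell markers to 3.12 to 5.38 and 0.953 to 3.01 CPM, and the 3 plasma cell markers to 1.12 to 1.82 and 0.429 to 0.777 CPM. No marker on these lists was at 0 in all 4 libraries, and the highest, Cd68, reached 14.4 CPM. Their part in the receptor differences was not tested.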

How the data were processed

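TRIzol-extracted RNA went into SMARTer mRNA libraries (labels' protocols). The submitters' processing notes name HISAT2 2.2.1, featureCounts 2.0.1 and GRCm38, and the annotation and strand setting were not given in the sources used here. The deposited table holds whole read counts per gene symbol, not normalized by the authors. A second deposited table holds variance-stabilised values on a log2-like scale and the authors' log2 fold change with its error, and its mean of scaled counts is a signal, its statistic a score and its p-value and adjusted p-value those of the authors' genotype comparison, per the file headers.

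Library sizes were scaled with TMM in edgeR 4.0.16 (R 4.3.3). Genes averaging 5 CPM or more entered edgeR's quasi-likelihood test, with additive terms for genotype and state. The 4 libraries leave 1 residual degree of freedom. The threshold was 0.05 after Benjamini-Hochberg adjustment over all 9680 tested genes. The error is the inconsistency of the genotype difference between states, pooled over genes (biological coefficient of variation 6.66%), and SE is the log2 difference divided by the root of the F statistic. Ratios of 2 libraries use log2 CPM with a prior count of 2 and exact binomial (Clopper-Pearson) 95% intervals given the sum of counts, without the prior count. The fit was also run on simulated counts with known genotype changes. They were drawn with the fit's own pooled dispersion, without a state effect or spread between mice. That run checks the code and cannot check the p-values of these libraries. Alternatives were other scalings (median of ratios, upper quartile, 7 T cell genes), other level minimums, DESeq2 1.42.0, single-term models, a prior count of 0.5 and the deposited variance-stabilised values.

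The members and lists were chosen with earlier results of these data known. Named were the 10 members, the 4 genes of each list with the largest difference for genotype and for state, the 4 nearest protein-coding genes of the 4 members with the widest range, and Ripk1, Foxp3 and Xist. Of the genes so selected, 1 is not reported here.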

Additional observations from a re-analysis of the deposited data

Results flagged for a closer look

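Ctla4 differed between genotypes in opposite directions in the 2 states, at -0.01 in aTreg and 0.22 in rTreg, a difference of -0.23 log2 units, which was not tested. Cd200 differed between states in opposite directions in the genotypes, at -0.15 in the KO-labelled pair and 0.04 in the WT pair, a difference of -0.19 that was not tested either. When libraries were scaled to T cell genes, the Ctla4 ratio in aTreg was 0.04, and its directions were then the same in both states. The counting intervals of the aTreg ratio of Ctla4 and of both ratios of Cd200 span 0.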

How the results depend on the processing

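Among alternatives to the tests of the 10 genes, 121 left the call as it was, 17 lost it, 2 gained it and none turned the direction of a difference. DESeq2 called 2527 genes for genotype and 423 for state. Of the 10 genes it called 3 for genotype (Havcr2, Tigit and Icos) and 5 for state (Pdcd1, Lag3, Havcr2, Tigit and Pvrig). It called 15 of the further list genes for state, against 30 with edgeR. With genotype alone and states as replicates, 1626 genes and 1 of the 10 were called. With state alone 0 genes and 0 of the 10 were called by edgeR, although 328 genes and 3 of the 10 (Pdcd1, Lag3 and Pvrig) had an unadjusted p under 0.05. Scaling to T cell genes moved the share of higher calls to 62.8% for genotype, against 51.7%, and to 43.3% for state, against 59.2%, and shifted all log2 differences by 0.06 and -0.05 at the median.

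Counts of genes at least 2-fold apart grew as the level minimum fell. With no minimum they were 3073 and 2618 for genotype in aTreg and rTreg and 2068 and 1974 for state in the KO-labelled and WT pairs. With a minimum of 1 CPM they were 1057, 882, 319 and 550. Between the authors' variance-stabilised values they were 164, 84, 17 and 33, and for state 1 (KO-labelled) and 2 (WT) of the 10 genes were 2-fold apart. The cause was not tested. With the longest coding transcript as length, the ratio of Ctla4 over Cd28 was 21.8 and 19.8 in KO-labelled aTreg and rTreg and 17.9 and 12.1 in WT aTreg and rTreg, an alternative added after the data were seen, as were those for the difference of the genotype ratio between states. No paired analysis was possible because each combination of genotype and state has 1 library, and leaving out a library leaves no residual degree of freedom. Pvrig, Cd160 and Havcr2 had the largest SEs of the 10 genes for genotype, from 0.212 to 0.239.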

Other observations

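Lair1 and Eomes, of the further lists, lay below the level minimum and were not tested. The same held for Nectin2, Nectin3, Ceacam1, Cd244a and Timd4, each under 1 CPM in every library. Of these, Nectin2 and Ceacam1 were lower in the KO-labelled library of each state, and Nectin3, Cd244a and Timd4 were not apart in the same direction in both states. Lair1, an inhibitory collagen receptor, had 6.88 and 5.56 CPM in KO-labelled aTreg and rTreg, against 2.09 and 2.05 CPM in WT aTreg and rTreg. Eomes, a T-box factor related to T-bet, had 5.97 and 6.98 CPM in KO-labelled aTreg and rTreg, against 0.583 and 1.57 CPM in WT aTreg and rTreg. Both were named after their values were seen.

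Pdcd1, Lag3, Tigit, Havcr2 and Pvrig summed to 359 CPM in KO-labelled aTreg and 164 CPM in KO-labelled rTreg, against 256 CPM in WT aTreg and 85.2 CPM in WT rTreg. Ctla4 made up 37.7% and 47.4% of the CPM of all 10 genes in KO-labelled aTreg and rTreg, against 43.8% and 53.9% in WT aTreg and rTreg.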
